A study of Homo sapiens with 6 samples.

Results

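In SUM159 oncospheres, 8 genes of nitric oxide and cGMP signalling, GUCY1A1, GUCY1B1, GUCY1A2, PRKG1, PRKG2, PDE5A, NPR1 and NPR3, were followed through every probe set annotated to one of them and to no other gene. They had 29 probe sets of the 54613 tested, and the 8 genes stand among 19775 named genes on the array. A probe set is a group of short probes that reads one stretch of a transcript, mostly near its 3' end, and its level is given here on the log2 scale after robust multiarray average (RMA) normalization. The genes were chosen with results of the same contrast in view, so their differences between groups are given as a description and without a p-value.

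RNA came from SUM159, an established human breast cancer cell line, grown as floating oncospheres. The arrays labelled SCGB3A1 held cells infected with the lentiviral vector pLVX-Puro carrying a synthesized human SCGB3A1 cDNA, and the empty-vector arrays held cells infected with the vector alone. SCGB3A1 encodes a small secreted secretoglobin. Puromycin selection (2 µg/ml) lasted 7 days in both groups, and the cells then spent 5 days on non-adherent plates, seeded at 12500 cells/ml in HuMEC medium with BSA and B27. From each sample 100 ng of total RNA was labelled for 1 Affymetrix U133 Plus 2.0 array. Each group had 3 arrays, which the labels call biological replicates. Whether each replicate was a separate infection, and whether cells were pooled or cloned after selection, is not given in the sources used here, so p-values measure only the spread between these samples.

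Nitric oxide signals through soluble guanylyl cyclase, a pair of one alpha subunit (GUCY1A1 or GUCY1A2) and the beta subunit GUCY1B1, whose haem group binds the gas. The enzyme makes cGMP from GTP. Natriuretic peptides raise cGMP by a separate route, through the membrane cyclase NPR1, while NPR3 has no cyclase domain and clears the peptides. The messenger acts through the kinases PRKG1 and PRKG2 and is broken down by phosphodiesterases such as PDE5A, the target of sildenafil. The pathway is best known from smooth muscle and platelets, where it relaxes vessels and restrains aggregation.

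The arrays themselves were alike. Their medians were all 6.92, and no sorted value lay more than 0.0256 from the mean of the 6 arrays. Replicate 2 of the empty vector correlated less with the other 5 arrays (Pearson r over all probe sets, 0.989 to 0.993) than those did with each other (0.993 to 0.996). The SCGB3A1 probe set 230378_at averaged 6.74 ± 0.16 on the arrays labelled SCGB3A1 and 6.91 ± 0.13 on the empty-vector arrays (SD, n = 3 each), a difference of -0.17 ± 0.10 (SE, adjusted p = 0.835, limma). Whether this probe set reads any part of the inserted cDNA is not known, so it may check nothing, and the groups are named by their labels throughout. The study reports a qPCR check of expression in SUM159 cells carrying these vectors, without saying whether these RNA samples were among those checked. Of the markers looked at for the labelled line, vimentin (VIM) averaged 14.4 and EGFR 9.60 over the 6 arrays. EGFR read lower on every array labelled SCGB3A1 than on any empty-vector array, with a difference of -0.24 ± 0.08 (SE, adjusted p = 0.759, limma). Of all probe sets, 5.25% lay apart in this direction. The groups overlapped for VIM, CD44, KRT18 and KRT8, the other markers of the line. Of the receptors listed as low in this line, PGR averaged 6.36 and ESR1 7.07, but ERBB2 averaged 8.66, at percentile 81.1 of all probe sets.

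The 5 largest differences among the 29 probe sets belonged to GUCY1A1 (3 probe sets), PRKG1 and GUCY1B1. All 4 GUCY1A1 probe sets, 1 of the 3 for PRKG1 and 1 of the 2 for GUCY1B1 had every array labelled SCGB3A1 above every empty-vector array. This held for 5.95% of all probe sets. GUCY1A2, PRKG2, PDE5A and NPR1 had no probe set of that kind, and both such probe sets of NPR3 were dim. The plot of levels on each array shows all 29.

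**Figure D1:**
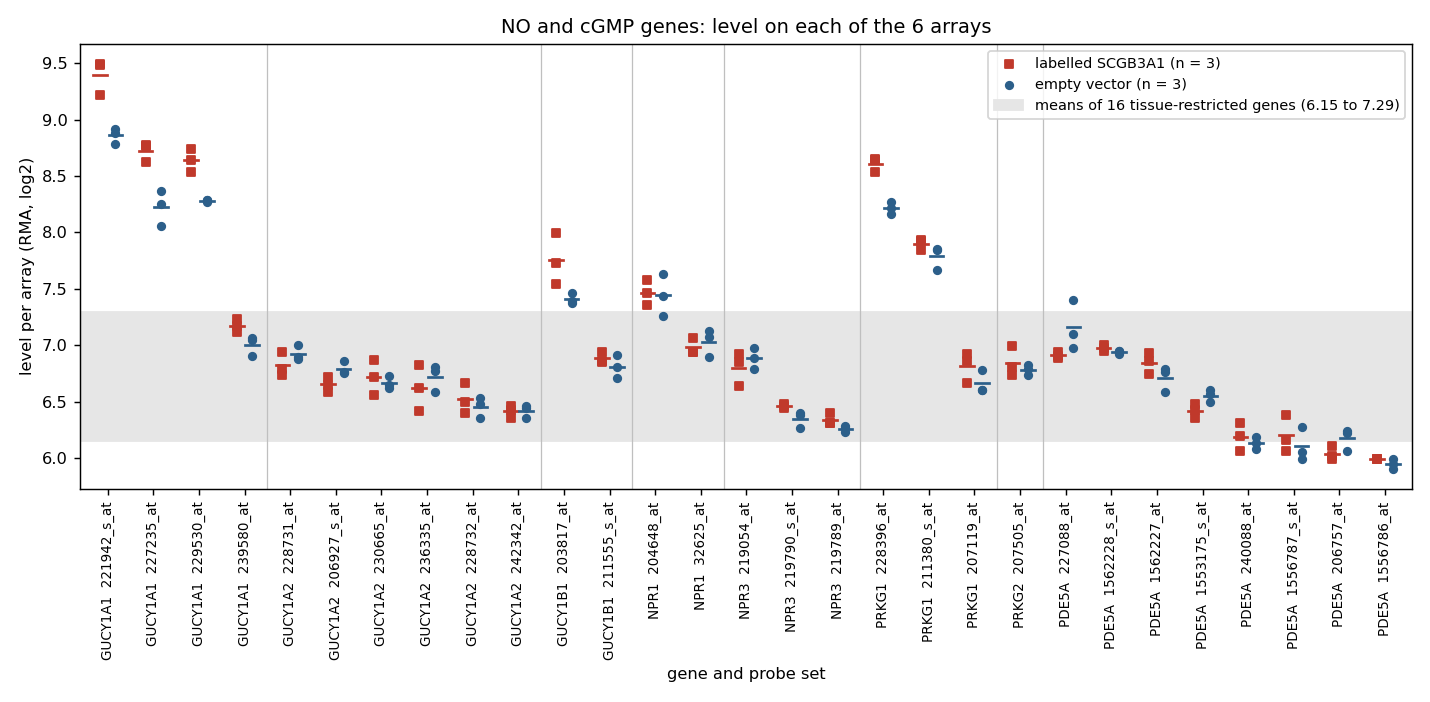
Level of each probe set (RMA, log2) on the 3 arrays labelled SCGB3A1 (squares, left) and the 3 empty-vector arrays (circles, right), with group means as bars; the grey band spans the means of 16 genes of restricted tissues (6.15 to 7.29). The GUCY1A1 squares sit above the circles in all 4 probe sets, while most probe sets of GUCY1A2, NPR3 and PDE5A lie inside or below the band.

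RMA values have no zero and no detection call. As a guide to the dim end of the scale, 16 genes of restricted tissues, such as glucagon (GCG, 6.15) and beta globin (HBB, 7.29), had means between these 2 values. Of the 29 probe sets, 7 averaged above that range over the 6 arrays, namely 3 of GUCY1A1, 2 of PRKG1 and 1 each of GUCY1B1 and NPR1. The other 22 lay within or below it, and whether those transcripts were present at all cannot be read from these values. The top of the range rests on HBB alone, whose probe set ends in _x_at, the maker's mark for probes that may read other transcripts. The next of the 16 genes, CRYGD, averaged 6.89. Between these 2 genes lay GUCY1A1 239580_at (7.09), PDE5A 227088_at (7.04) and 1562228_s_at (6.96), and NPR1 32625_at (7.01), so their place within the range depends on HBB.

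GUCY1A1, the common alpha subunit of the NO receptor, had the brightest of the 29 probe sets. Probe set 221942_s_at read 9.22, 9.49 and 9.49 on the arrays labelled SCGB3A1, against 8.79, 8.88 and 8.92 on the empty-vector arrays. The groups did not overlap, and the lowest array labelled SCGB3A1 stood clear of the highest empty-vector array. The means were 9.40 ± 0.16 and 8.86 ± 0.07 (SD, n = 3 each), a difference of 0.54 ± 0.09 (SE, 95% interval 0.34 to 0.73) or 1.45-fold. Its mean over the 6 arrays lay at percentile 86.0 of all probe sets.

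A second GUCY1A1 probe set, 227235_at, read 8.62, 8.76 and 8.78 on the arrays labelled SCGB3A1, against 8.05, 8.25 and 8.37 on the empty-vector arrays. Here too the groups were apart, and the empty-vector arrays were the more scattered. The difference was 0.50 ± 0.09 (SE, 95% interval 0.30 to 0.69), or 1.41-fold. Probe set 229530_at read 8.54, 8.64 and 8.74 on the arrays labelled SCGB3A1, against 8.27, 8.28 and 8.29 on the empty-vector arrays, a difference of 0.36 ± 0.08 (SE). The empty-vector arrays were nearly level in this probe set, so its spread came from the arrays labelled SCGB3A1. The dimmest probe set of the gene, 239580_at, read 7.17, 7.12 and 7.23 on the arrays labelled SCGB3A1, against 7.07, 6.90 and 7.05 on the empty-vector arrays. Its groups were also apart, but narrowly, with a difference of 0.17 ± 0.08 (SE), or 0.12 without empty-vector replicate 2. The 4 probe sets read the same RNA on the same arrays and are not replicates of the comparison. Their differences averaged 0.39.

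The study's own signature criteria asked for a log2 difference over 0.5 with p under 0.05 and adjusted p under 0.25, and GUCY1A1 entered the list of genes by these values. Of the 29 probe sets, 1 met them, against 0.0311% of all probe sets (17 in 12 named genes), with 0.0256% higher and 0.00549% lower on the arrays labelled SCGB3A1. That probe set, 221942_s_at, lay just inside the limit on the difference at 0.54, and 227235_at, at 0.497, lay just outside it. None of the 29 had an adjusted p under 0.05 (limma), where 0.0183% of all probe sets did (10 probe sets), with 0.0165% higher and 0.00183% lower. An unadjusted p under 0.05 was found for 6.2% of all probe sets (3385). Since the same contrast chose the genes, nothing is read from these shares.

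GUCY1A1 221942_s_at no longer met the criteria when any one of 4 arrays was left out. Without SCGB3A1 replicate 2 or SCGB3A1 replicate 3 its difference was 0.49 in both cases, without empty-vector replicate 1 it was 0.50, and without empty-vector replicate 3 it was 0.56. Over the 6 ways of leaving out an array the difference ran from 0.49 to 0.63. Its ending _s_at is the maker's mark for probes shared by several transcripts, which the other 3 GUCY1A1 probe sets do not carry. Probe set 227235_at met the criteria with array weights and without empty-vector replicate 3, and in that last case its difference was 0.57.

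GUCY1B1, the obligate beta partner, lies next to GUCY1A1 on chromosome 4 as its next protein-coding gene in the RefSeq table. Probe set 203817_at read 7.73, 7.54 and 7.995 on the arrays labelled SCGB3A1, against 7.39, 7.46 and 7.37 on the empty-vector arrays. The groups were apart, though replicate 2 of the arrays labelled SCGB3A1 came close to the empty-vector arrays and replicate 3 stood highest. The means were 7.75 ± 0.23 and 7.41 ± 0.05 (SD, n = 3 each), a difference of 0.35 ± 0.10 (SE, 95% interval 0.12 to 0.57) or 1.27-fold. The difference was 0.23 without SCGB3A1 replicate 3 and 0.45 without SCGB3A1 replicate 2. The other GUCY1B1 probe set, 211555_s_at, read 6.86, 6.85 and 6.94 on the arrays labelled SCGB3A1, against 6.92, 6.71 and 6.81 on the empty-vector arrays. There the groups overlapped, with a difference of 0.07 ± 0.08 (SE), or 0.02 without empty-vector replicate 2, so the 2 probe sets of this gene did not read alike, and the dimmer one lay in the range of the genes of restricted tissues. The mean difference over both was 0.21.

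The promoters of these neighbouring subunit genes are printed because GUCY1A1 and GUCY1B1 were, with PRKG1, the genes with the largest differences. All 8 genes had an entry in the RefSeq promoter table (GRCh38.p14), which holds 250 bases before and 50 after each start. The GUCY1A1 starts lie in the windows chr4:155666598-155666897 and chr4:155667412-155667711, and the GUCY1B1 start lies in chr4:155758771-155759070, all on the plus strand. Capitals mark 3 motifs on either strand, namely GGGCGG, known as a GC box, CCAAT, which reads ATTGG from the minus strand, and TATAAA, known as a TATA box.
GUCY1A1 start 1: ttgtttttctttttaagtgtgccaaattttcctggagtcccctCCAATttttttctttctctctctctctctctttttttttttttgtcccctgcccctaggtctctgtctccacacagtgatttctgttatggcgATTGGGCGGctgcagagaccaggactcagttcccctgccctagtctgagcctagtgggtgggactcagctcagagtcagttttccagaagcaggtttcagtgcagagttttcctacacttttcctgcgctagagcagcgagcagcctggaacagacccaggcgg
GUCY1A1 start 2: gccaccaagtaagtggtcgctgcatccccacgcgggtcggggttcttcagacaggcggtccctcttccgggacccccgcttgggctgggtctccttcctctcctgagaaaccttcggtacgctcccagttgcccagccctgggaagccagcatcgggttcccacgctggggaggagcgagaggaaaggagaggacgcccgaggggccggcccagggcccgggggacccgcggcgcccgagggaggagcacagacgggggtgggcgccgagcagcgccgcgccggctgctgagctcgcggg
GUCY1B1 start 1: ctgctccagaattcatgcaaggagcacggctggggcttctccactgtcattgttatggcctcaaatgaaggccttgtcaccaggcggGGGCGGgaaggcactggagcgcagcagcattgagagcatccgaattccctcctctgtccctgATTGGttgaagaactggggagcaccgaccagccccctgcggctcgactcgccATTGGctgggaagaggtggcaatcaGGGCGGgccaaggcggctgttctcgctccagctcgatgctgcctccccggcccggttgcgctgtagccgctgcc
The first GUCY1A1 window holds 2 CCAAT matches and 1 GGGCGG match, which overlaps the minus-strand CCAAT match, and it has a GC content of 49.7% with 5 CpG pairs. The second GUCY1A1 window holds no match, and it has a GC content of 72.0% with 29 CpG pairs. The GUCY1B1 window holds 2 GGGCGG and 2 CCAAT matches, with a GC content of 63.0% and 17 CpG pairs. None of the 3 holds TATAAA. Among 35116 promoters of the same 300 bases, 45.0% hold GGGCGG, 34.6% hold CCAAT and 11.5% hold TATAAA, so these are common matches. They describe the letters of the windows and nothing about binding. Which start the cells used was not measured.

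GUCY1A2, the other alpha subunit, known mainly from brain, had 6 probe sets, all dim, with values between 6.36 and 7.00 on every array. Their differences ran from -0.14 to 0.06, with 2 positive and 4 negative. Only 206927_s_at had groups apart, at 6.65, 6.59 and 6.72 on the arrays labelled SCGB3A1, against 6.76, 6.86 and 6.75 on the empty-vector arrays, a difference of -0.14 ± 0.07 (SE, 95% interval -0.30 to 0.02). The mean difference over its 6 probe sets was -0.039, where that of the 4 GUCY1A1 probe sets was 0.39.

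PRKG1, the cGMP-dependent kinase that mediates relaxation of smooth muscle, had 3 probe sets, all with a positive difference. Probe set 228396_at read 8.65, 8.53 and 8.64 on the arrays labelled SCGB3A1, against 8.22, 8.16 and 8.27 on the empty-vector arrays. The groups lay well apart and both were tight. The means were 8.61 ± 0.07 and 8.22 ± 0.05 (SD, n = 3 each), a difference of 0.39 ± 0.07 (SE, 95% interval 0.23 to 0.55) or 1.31-fold. It ran from 0.36 to 0.43 when each array was left out in turn.

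The other PRKG1 probe sets were less clear. Probe set 211380_s_at read 7.92, 7.84 and 7.94 on the arrays labelled SCGB3A1, against 7.85, 7.84 and 7.67 on the empty-vector arrays, a difference of 0.11 ± 0.08 (SE, 95% interval -0.05 to 0.28). Probe set 207119_at, in the dim range, read 6.86, 6.92 and 6.66 on the arrays labelled SCGB3A1, against 6.61, 6.61 and 6.78 on the empty-vector arrays, a difference of 0.15 ± 0.09 (SE). In both, the groups overlapped. With each array left out in turn, 211380_s_at ran from 0.05 (without empty-vector replicate 3) to 0.15, and 207119_at from 0.10 to 0.22 (without SCGB3A1 replicate 3). The mean difference over the 3 PRKG1 probe sets was 0.22.

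PRKG2, the membrane-anchored kinase known from gut epithelium and growth plate cartilage, had 1 probe set, 207505_at, which read 6.99, 6.73 and 6.81 on the arrays labelled SCGB3A1, against 6.82, 6.73 and 6.79 on the empty-vector arrays. These groups overlapped almost entirely, with a difference of 0.06 ± 0.08 (SE, 95% interval -0.12 to 0.24), or 0.04 without empty-vector replicate 2. The difference changed sign to -0.01 without SCGB3A1 replicate 1 and was 0.12 without SCGB3A1 replicate 2.

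PDE5A, which removes cGMP, had 8 probe sets, 5 with a positive and 3 with a negative difference, from -0.25 to 0.13. The brightest, 227088_at, read 6.89, 6.90 and 6.94 on the arrays labelled SCGB3A1, against 7.10, 6.98 and 7.40 on the empty-vector arrays. The groups were apart in the downward direction, and replicate 3 of the empty vector stood above the rest. The means were 6.91 ± 0.03 and 7.16 ± 0.22 (SD, n = 3 each), a difference of -0.25 ± 0.10 (SE, 95% interval -0.46 to -0.03). It was -0.13 without empty-vector replicate 3 and -0.34 without empty-vector replicate 2. Probe set 1553175_s_at read 6.36, 6.43 and 6.48 on the arrays labelled SCGB3A1, against 6.49, 6.60 and 6.57 on the empty-vector arrays, with groups apart and a difference of -0.13 ± 0.07 (SE). The other 6 overlapped. The highest of them, 1562227_at, differed by 0.13 ± 0.08 (SE), or by 0.07 without empty-vector replicate 2. The mean difference over the 8 probe sets was -0.020.

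**Figure D2:**
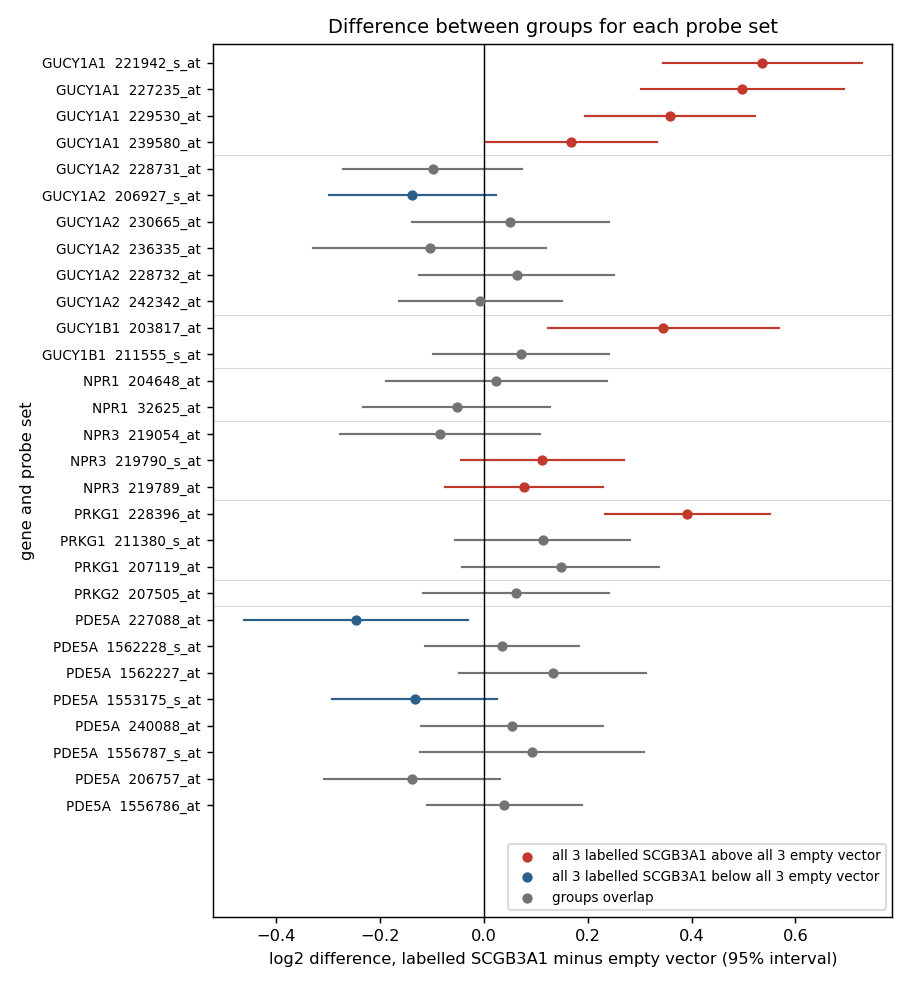
Log2 difference, arrays labelled SCGB3A1 minus empty vector, with its 95% interval from the limma fit, for each of the 29 probe sets; red marks groups apart and higher on the arrays labelled SCGB3A1 (8), blue groups apart and lower (3), grey overlapping groups (18). The points run from -0.25 in PDE5A to 0.54 in GUCY1A1. Of all probe sets, 5.95% lay apart and higher and 5.25% apart and lower.

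NPR1, the receptor cyclase for atrial and brain natriuretic peptide, had 2 probe sets. The brighter, 204648_at, read 7.36, 7.58 and 7.46 on the arrays labelled SCGB3A1, against 7.44, 7.63 and 7.26 on the empty-vector arrays, a difference of 0.02 ± 0.10 (SE, 95% interval -0.19 to 0.24). This was 0.12 without empty-vector replicate 2 and -0.07 without empty-vector replicate 3. The other, 32625_at, read 7.07, 6.94 and 6.94 on the arrays labelled SCGB3A1, against 7.13, 7.07 and 6.89 on the empty-vector arrays, a difference of -0.05 ± 0.08 (SE). The groups overlapped in both, and their mean difference was -0.014.

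NPR3, the clearance receptor, had 3 probe sets, all in the dim range. Probe set 219054_at overlapped between groups, with a difference of -0.08 ± 0.09 (SE). Probe set 219790_s_at read 6.48, 6.44 and 6.46 on the arrays labelled SCGB3A1, against 6.26, 6.40 and 6.38 on the empty-vector arrays, a difference of 0.11 ± 0.07 (SE). Probe set 219789_at read 6.31, 6.31 and 6.40 on the arrays labelled SCGB3A1, against 6.26, 6.29 and 6.24 on the empty-vector arrays, a difference of 0.08 ± 0.07 (SE). In these last 2 the groups were apart by little. The 95% interval of the difference was -0.04 to 0.27 for 219790_s_at and -0.08 to 0.23 for 219789_at. The mean difference over the 3 probe sets was 0.035, of opposite sign to the brightest, 219054_at.

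Over the 29 probe sets, 20 had a positive and 9 a negative difference, where 51% of all probe sets were positive. Groups were apart and higher on the arrays labelled SCGB3A1 in 8 probe sets and apart and lower in 3. Of all probe sets, 5.95% and 5.25% lay apart in these directions. The median difference was 0.06, against 0.0026 over all probe sets, and with 1 probe set a gene, the one of highest mean, it was 0.043. Without empty-vector replicate 2, 20 probe sets were again positive and the median was 0.039. Since the genes were chosen on this contrast, these counts describe the list and support nothing further.

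The brightest GUCY1A1 probe set, 221942_s_at, was set against 23454 brighter-than-median probe sets of 12656 named genes by Pearson r over the 6 arrays, as a description. The 5 genes most like it were HES4 (r = 0.996), a transcriptional repressor of the Hes family, BCHE (0.990), which encodes butyrylcholinesterase, the long non-coding RNA GLIDR (0.989), TIMMDC1 (0.987), an assembly factor of respiratory complex I, and ASPN (0.986), the matrix proteoglycan asporin. Their differences were 0.12 for HES4, 0.24 for BCHE, 0.06 for GLIDR, 0.12 for TIMMDC1 and 0.32 for ASPN. In all 5 genes replicate 1 was the lowest of the arrays labelled SCGB3A1, as in GUCY1A1. With the group means removed, r was 0.983 for HES4, 0.936 for BCHE, 0.929 for GLIDR, 0.891 for TIMMDC1 and 0.876 for ASPN. Since 223 genes passed r of 0.9 over only 6 arrays in 2 groups, the order among them carries little. The low replicate 1 and the r with group means removed come from the same arrays that picked the 5 genes. The HES4 probe set ends in _x_at, the maker's mark for probes that may read other transcripts.

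**Figure D3:**
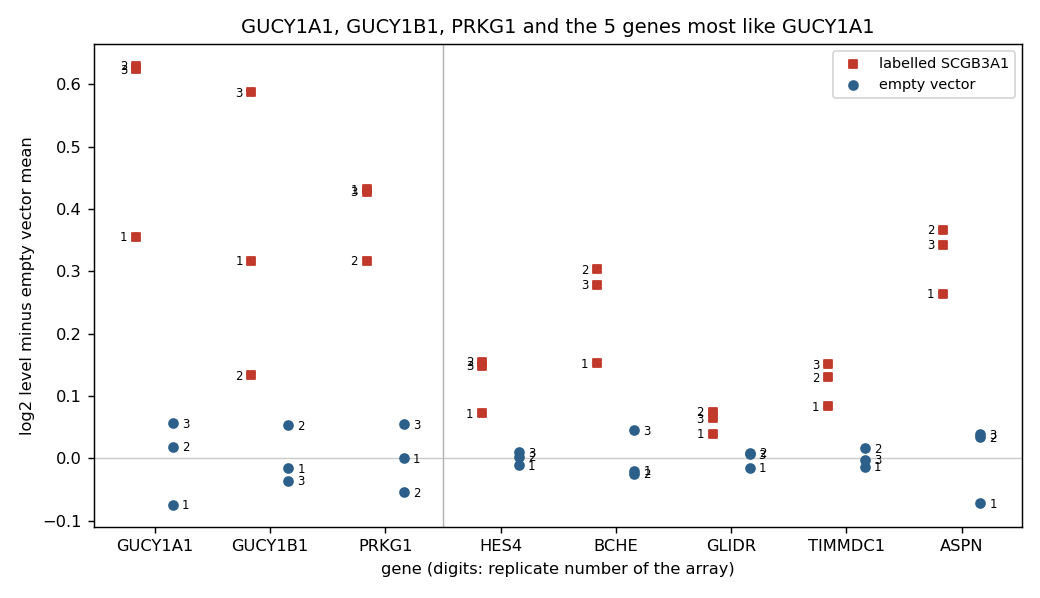
Log2 level minus the empty-vector mean on each of the 6 arrays for GUCY1A1 (221942_s_at), GUCY1B1 (203817_at), PRKG1 (228396_at) and the 5 genes most like GUCY1A1; squares are arrays labelled SCGB3A1, circles empty vector, digits the replicate number. Array 1 is the lowest square in GUCY1A1 and in the 5 genes to the right, whereas array 2 is the lowest in GUCY1B1 and PRKG1.

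The other subunit and the kinase followed GUCY1A1 less closely. PRKG1 228396_at had r = 0.885 with GUCY1A1 over the 6 arrays and GUCY1B1 203817_at had 0.759, while with the group means removed r was -0.31 for PRKG1 and 0.084 for GUCY1B1. The GUCY1A1 probe sets 227235_at (0.969) and 229530_at (0.982) had 0.774 and 0.840 with the group means removed. The dimmest, 239580_at, had 0.742 over the 6 arrays and -0.10 with the group means removed.

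The rest of the pathway was read from a list of 67 further genes, of which 62 were measured by at least 1 probe set with that symbol alone, and each was represented by its probe set of highest mean. None passed an adjusted p under 0.05 (limma, adjusted over all probe sets) in either direction, where 0.0303% of genes did, and none met the signature criteria. Their adjusted p-values ran from 0.475 to 0.999 and their median difference was 0.02. At an unadjusted p under 0.05 there were 4, NOS1, PDE3B, PDE9A and IRAG1, where 6.82% of genes had one. Groups were apart and higher in 4 (NOS1, GUCY2C, PDE9A and ABCC5), where 7.09% of genes were, and apart and lower in 1 (KCNMA1), where 5.24% were. PDE3B and GUCY2C were named after their values were seen.

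Among the enzymes that make NO, the neuronal synthase NOS1 had the largest difference of the list. Its probe set 207310_s_at read 7.19, 7.29 and 7.15 on the arrays labelled SCGB3A1, against 6.84, 6.96 and 6.62 on the empty-vector arrays, a difference of 0.40 ± 0.09 (SE, 95% interval 0.20 to 0.60, adjusted p = 0.475). The groups were apart, but the gene's other 5 probe sets differed by -0.06 to 0.07. All of these levels were in the dim range, though the place of 207310_s_at, which averaged 7.01, depends on HBB. The inducible synthase NOS2 differed by 0.02 and the endothelial synthase NOS3 by 0.05. Around them, GCH1, which starts synthesis of the cofactor tetrahydrobiopterin, differed by 0.03, DDAH1, which degrades the natural NOS inhibitor ADMA, by -0.05, and the arginase ARG2, which competes for arginine, by -0.10 in one probe set and by 0.10 in another of nearly the same level. The 8 genes of cofactor and substrate supply, GCH1 among them, had a median of 0.03. The 9 genes of NOS regulation and competition, DDAH1 and ARG2 among them, had a median of -0.04. None of either group passed the test.

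On the side of the peptides, brain natriuretic peptide (NPPB) differed by 0.02 and C-type natriuretic peptide (NPPC) by 0.11. Of the genes listed under other cGMP phosphodiesterases, 14 were measured, with a median of 0.04. Among these, PDE6D, PDE6G and PDE6H do not themselves hydrolyse cGMP. The brightest PDE6D probe set differed by 0.06 and the dimmest by 0.01. The one between them, averaging 8.35, differed by -0.26 ± 0.10 (SE, adjusted p = 0.782, limma), with overlapping groups. PDE3B differed by 0.21 ± 0.09 (SE, adjusted p = 0.802, limma) and PDE9A by 0.19 ± 0.08 (SE, adjusted p = 0.784, limma). Both lay in the dim range, though the place of PDE3B (6.97) depends on HBB. PDE1C, PDE3A and PDE10A differed by 0.03, 0.03 and 0.08, and the other PDE1C probe sets by -0.05 to 0.21. None of them passed the test.

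Downstream of the kinases, 8 substrates and effectors had a median of -0.08, and none passed the test. IRAG1, which lets PRKG1 restrain calcium release, differed by 0.21 ± 0.10 (SE, adjusted p = 0.805, limma) in a probe set averaging 7.02, whose place in the dim range depends on HBB. Its other 2 probe sets differed by -0.06 and -0.05. Its channel partner ITPR1 differed by -0.06. VASP, the actin regulator whose phosphorylation serves as a readout of the kinase, differed by -0.10, the myosin phosphatase subunit PPP1R12A by -0.12, the potassium channel KCNMA1 by -0.11 and RGS2, a brake on G protein signalling, by 0.04. The dimmer KCNMA1 probe sets differed by -0.21, -0.02 and 0.08. The transporters that export cGMP, ABCC5 and ABCC4, differed by 0.14 and -0.04. RNA levels say nothing of the phosphorylation or of cGMP itself, which were not measured here.

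**Figure D4:**
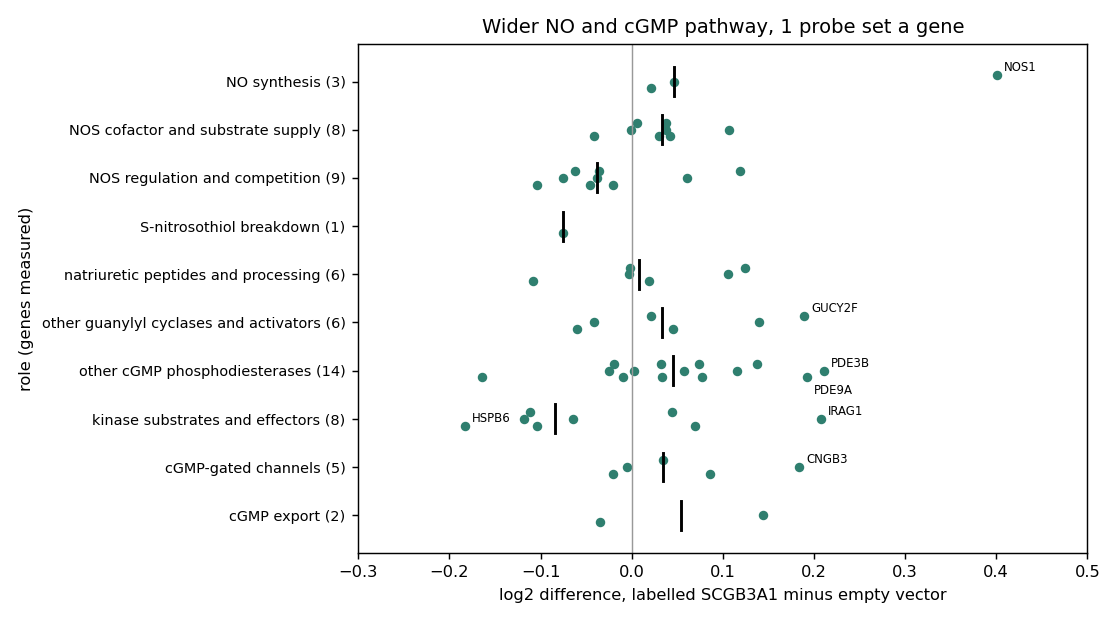
Log2 difference, arrays labelled SCGB3A1 minus empty vector, for 62 further genes of the pathway by role, 1 probe set a gene; each point is a gene and each bar the median of its role, with the number of genes in brackets. Apart from NOS1 at 0.40 the points lie between -0.18 and 0.21, on both sides of 0.

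Because this pathway is best known from vessel wall cells and platelets, their markers were read as well. The 7 smooth muscle and pericyte markers averaged 7.03 to 7.15 on the arrays labelled SCGB3A1 and 6.99 to 7.05 on the empty-vector arrays, and their summed linear signal was 936 to 1012 on the arrays labelled SCGB3A1 and 904 to 952 on the empty-vector arrays. The lowest was CNN1 (6.49) and the highest CSPG4 (7.56). The 5 endothelial markers averaged 6.68 to 6.83 on the arrays labelled SCGB3A1 and 6.80 to 6.87 on the empty-vector arrays, and the 4 platelet markers 6.77 to 6.93 and 6.79 to 6.95. The lowest endothelial marker was CDH5 (6.11) and the highest PECAM1 (8.27, at percentile 76.5 of all probe sets). Among the platelet markers PPBP (6.09) was lowest and GP9 (7.45) highest. CSPG4, PECAM1 and GP9 averaged above the range of the genes of restricted tissues. None of these marker genes passed an adjusted p under 0.05 (limma), and none had an unadjusted p under 0.05. The 5 markers of the labelled line averaged 11.7 to 11.8 on the arrays labelled SCGB3A1 and 11.8 on the empty-vector arrays.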

How the data were processed

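The authors hybridised 1 RNA sample per array, normalized the scanner files by RMA, and deposited log2 values per probe set. Chipster was used for this per the study's methods. RMA gives all arrays 1 distribution and compresses low values, so differences of dim genes come out too small. No column of per-sample values was left unused. The deposited table has 54675 probe sets. After 62 manufacturer controls were set aside, 54613 were tested, of which 41091 carried 1 gene symbol, 1801 several and 11721 none in the platform annotation. Symbols were updated by gene identifier against RefSeq (GRCh38.p14), and all 8 genes matched.

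Groups were compared with limma 3.58.1 (R 4.3.3) by lmFit and eBayes without covariates, two-sided, with Benjamini-Hochberg adjustment over all tested probe sets, following the empirical Bayes test of the methods. On simulated data with independent noise, the procedure had to recover a log2 change larger than any difference given here. That check says nothing of recovery at the size of the differences reported. The 8 genes and all lists were chosen with earlier results of these data known. Named were all 8 genes with every probe set, the wider-list genes past a threshold, a chosen set of its other genes regardless of result, SCGB3A1, and the 5 genes most like GUCY1A1. Of the wider list, 5 genes, NPR2 among them, were not analysed here. Alternatives were repeated quantile normalization, median centring, an intensity trend, array weights, a replicate block, a filter on dim probe sets, removal of _x_at and _s_at probe sets, other summaries of a gene, and leaving out each array. The number of arrays limits the precision.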

Additional observations from a re-analysis of the deposited data

How the results depend on the processing

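Probe sets with an adjusted p under 0.05 (limma) numbered 10, against 19 with an intensity trend, 16 with array weights, 6 among probe sets brighter than the median, 3385 with unadjusted p under 0.05, and 1 to 6 with 1 array left out. The signature criteria called 17, against 10 without _x_at and _s_at probe sets and 7 (without SCGB3A1 replicate 2) to 23 (without empty-vector replicate 3) with 1 array left out. Same-numbered arrays did not deviate together (correlations of 0.15, -0.14 and -0.09), so the numbers are not taken to pair the samples. With the replicate block 4 probe sets had an adjusted p under 0.05 and 20 met the signature criteria. Among the 29 probe sets, 20 were positive, against 18 to 21 with 1 array left out. Of the 11 brighter than the median 9 were positive, with a median difference of 0.17, against 0.0053 over all probe sets that bright. Most of the 11 read GUCY1A1, PRKG1 and GUCY1B1, the genes with the largest differences, so this median restates the choice of genes. The median over the 29 ran from 0.039 to 0.085 with 1 array left out. None of the 29 had an adjusted p under 0.05 under any alternative. The sign was kept under all alternatives run in 23 probe sets (15 positive, 8 negative, with all of GUCY1A1, GUCY1B1 and PRKG1 among them) and changed under at least 1 in the other 6, which differed by little. When a gene's probe sets were averaged rather than the brightest taken, the difference was 0.39 in place of 0.54 for GUCY1A1, 0.22 in place of 0.39 for PRKG1, 0.21 in place of 0.35 for GUCY1B1, -0.039 in place of -0.10 for GUCY1A2 and -0.020 in place of -0.25 for PDE5A, and it changed sign for NPR1 (-0.014 in place of 0.02) and NPR3 (0.035 in place of -0.08). The wider list had 0 calls in every alternative with adjusted p, and 4 with unadjusted p under 0.05. Signal near the dim end of the scale limits GUCY1A2, PRKG2, PDE5A and NPR3, and 3 arrays a group limit all.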

Other observations

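Transcripts related to the 8 genes by name were read as values only. PRKG1-AS1, annotated as antisense to PRKG1, differed by -0.06 ± 0.08 (SE) in its probe set 1561558_at, with means of 6.32 on the arrays labelled SCGB3A1 and 6.38 on the empty-vector arrays. GUCY1B2 differed by -0.05 ± 0.07 (SE) in probe set 220506_at, with means of 6.64 on the arrays labelled SCGB3A1 and 6.69 on the empty-vector arrays. Both lay in the dim range and their groups overlapped.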
